A study of Mus musculus with 8 samples.

Results

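Hox genes were examined in mRNA-seq libraries of cells isolated from mouse liver as microvascular endothelial cells (ECs), and their levels were compared between LRP1 eKO and WT mice. A Hox gene was taken as any row of the expression table whose symbol is Hoxa, Hoxb, Hoxc or Hoxd followed by a number, which gave 39 of 22520 genes. All mice carried the floxed allele of Lrp1, the gene of a large endocytic receptor of the LDL receptor family. The 4 LRP1 eKO libraries came from LRP1 f/f mice with Cdh5-CreER+/-, in which the Cdh5 promoter drives an inducible Cre recombinase in ECs, and the 4 WT libraries came from littermates with the same floxed allele and Cdh5-CreER-/-. CreER was thus present in 1 group only, so that an effect of CreER itself cannot be told apart from that of losing LRP1. The strain was C57BL/6 and the age was postnatal day 14 in both groups, and the cells were selected with beads carrying an antibody to PECAM-1. The sample labels call them liver microvesicular cells, and do not say whether each library came from 1 mouse.

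Hox genes encode homeodomain transcription factors that give cells along the head-to-tail axis of the embryo their position. They lie in 4 clusters, and genes at the same place in different clusters share a paralog number, with low numbers used more towards the head and high numbers more towards the tail, the limbs and the genital tract. Adult fibroblasts, smooth muscle cells and ECs keep part of the Hox pattern of the place they came from. In these libraries the pattern was one of low paralog numbers, led by Hoxa5, and HoxA was the one cluster whose summed signal was lower in LRP1 eKO libraries without overlap. Hoxa5 and Hoxa4 fell to 66.2% and 61.0% of their WT means. Of the 8 tested genes of the HoxB and HoxC clusters, 0 passed the test. Among all tested genes 22.2% were lower and 19.0% were higher, and the share of tested Hox genes that were lower, 21.4%, was near the former. Whether the clusters differ from each other in their response was not tested.

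The promoters of Hoxa5 and Hoxb4 are shown because Hoxa5 had the highest signal of the 39 genes and was lower in LRP1 eKO libraries, while Hoxb4, at a neighbouring paralog number in another cluster, did not pass the test. Each covers the annotated start in RefSeq on GRCm38.p6, with most of its bases before it, and capitals mark the retinoic acid receptor half-site AGGTCA or its reverse complement TGACCT. Hoxa5 is taken from chr6:52204538-52204837 on the minus strand and Hoxb4 from chr11:96318017-96318316 on the plus strand.
Hoxa5: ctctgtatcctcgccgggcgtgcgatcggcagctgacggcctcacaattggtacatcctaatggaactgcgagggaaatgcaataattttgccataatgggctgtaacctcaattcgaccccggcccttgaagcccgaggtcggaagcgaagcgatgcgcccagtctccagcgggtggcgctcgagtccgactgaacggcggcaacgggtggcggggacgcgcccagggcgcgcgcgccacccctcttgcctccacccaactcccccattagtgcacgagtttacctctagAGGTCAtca
Hoxb4: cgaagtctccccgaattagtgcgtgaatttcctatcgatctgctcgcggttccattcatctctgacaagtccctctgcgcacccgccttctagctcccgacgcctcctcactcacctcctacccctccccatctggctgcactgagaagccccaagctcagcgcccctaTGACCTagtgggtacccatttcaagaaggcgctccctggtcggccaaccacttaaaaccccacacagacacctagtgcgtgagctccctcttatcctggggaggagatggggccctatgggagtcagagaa
The Hoxa5 promoter had 29 CpG dinucleotides and a GC content of 61.7%, with the half-site starting at base 292 of the printed sequence. The Hoxb4 promoter had 14 CpG dinucleotides and a GC content of 58.0%, with the half-site starting at base 170. By the gene starts in GENCODE, the half-site of Hoxa5 lies after the start and that of Hoxb4 before it. RefSeq held promoters for 22 of the Hox genes, 24 promoters in all, and Hoxa4 was not among them. The half-site, searched on both strands, was in 7 of these 24 promoters and in 16.3% of 32851 promoters of the same length. A direct repeat of the half-site with 5 bases between its copies, which also counts as a half-site match, was in 0 of the 24 and in 3 of all promoters. The site TGATNNAT, bound by PBX and HOX proteins together, was in 4 of the 24 against 8.85% of all promoters. The letters CCAAT were in 15 of the 24 against 37.4%, and TATAAA was in 4 of the 24 against 13.6%. The median GC content was 57.7% in Hox promoters and 52.7% in all. A match describes the letters in this window only.

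The values are quantile-normalized signals of unknown depth, and Lrp1, the targeted gene, served as a check of the labels. Its mean was 65.5 ± 13.3 for WT and 4.41 ± 1.65 for LRP1 eKO libraries, where values after ± are SDs over n = 4 libraries here and throughout. The defining markers of ECs were low. Cdh5, the gene of VE-cadherin, averaged 1.86 across WT libraries and 3.70 across LRP1 eKO libraries, and Pecam1, the gene of the antigen used for selection, had 2.09 and 3.02. The summed signal of 11 EC markers, with 0 of them at 0 in all libraries, lay between 50.3 and 52.7 in WT and between 58.7 and 82.6 in LRP1 eKO libraries. By contrast 6 mesothelial markers summed to between 2215 and 2666 in WT and between 2884 and 3200 in LRP1 eKO libraries. Likewise 6 smooth muscle markers summed to between 1495 and 1560 in WT and between 1837 and 1921 in LRP1 eKO libraries. For 14 stellate cell and fibroblast markers the sums were 2199 to 2514 and 1930 to 2446. Of the marker sums shown, those of mesothelial cells, smooth muscle and ECs were higher in LRP1 eKO libraries without overlap. Of the same sums, those of skeletal muscle, hepatocytes and cholangiocytes were lower without overlap. Members of a list did not all move alike. Among EC markers Eng, from 12.4 to 24.3, and Esam were higher without overlap, Cldn5 was lower without overlap, and the rest overlapped. Among mesothelial markers Msln and Upk1b were higher without overlap, Lrrn4 overlapped with a higher mean, and Upk3b, Wt1 and Muc16 overlapped with lower means. Among stellate cell and fibroblast markers Pdgfra, from 32.0 to 21.1, Lum, from 28.7 to 17.2, Dcn, from 563 to 457, and Colec11 were lower without overlap. Hgf was higher without overlap, and the rest of that list overlapped. Skeletal muscle marker sums were 33.6 to 56.7 in WT and 6.00 to 7.95 in LRP1 eKO libraries, and hepatocyte marker sums were 42.8 to 62.4 in WT libraries, with a lowest value of 15.3 in LRP1 eKO libraries. Cholangiocyte marker sums were 163 to 178 and 139 to 149. Of that list only Krt7 had a lower mean in LRP1 eKO libraries, 141 in WT and 113 in LRP1 eKO. Krt19, at 27.0 and 30.3, and Sox9, Epcam and Cldn7 had higher means, and Epcam was near 0, at 0.030 and 0.041. Sums of liver sinusoidal EC markers, 9.38 to 13.4 and 10.6 to 36.1, overlapped, as did those of blood progenitors, 107 to 142 and 141 to 159, and lymphocyte markers summed to at most 0.191. Macrophage markers spread from 52.8 in LRP1 eKO replicate 2 to 734 in LRP1 eKO replicate 1. Several of these marker sums moved with genotype beside every Hox difference given here, and their part in it was not tested. In bulk libraries, fewer cells of a type and less RNA per cell cannot be told apart.

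**Figure D1:**
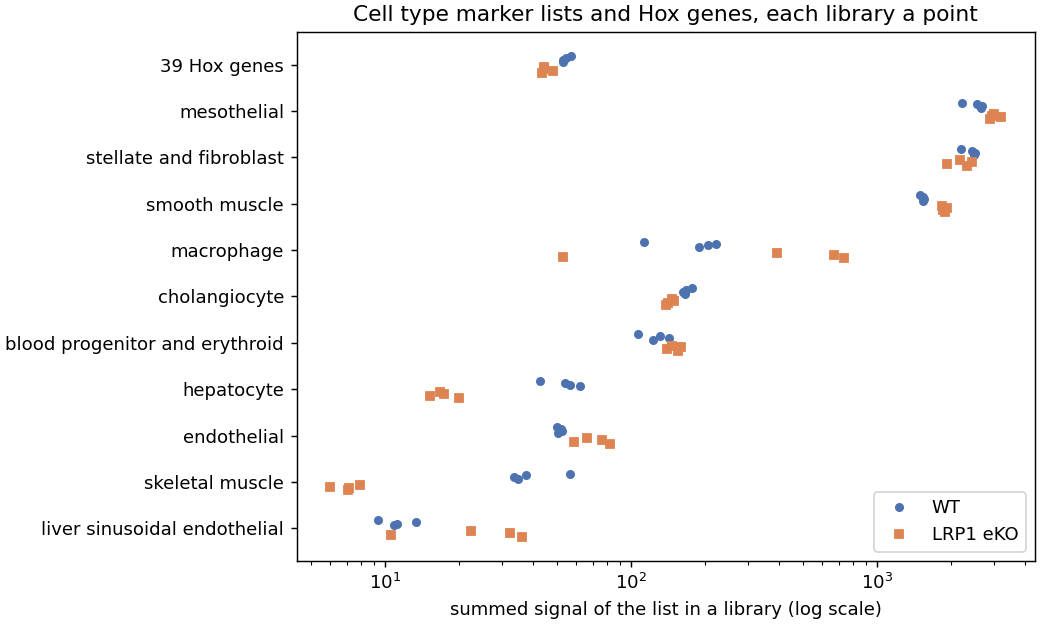
Summed signal of each cell type marker list and of the 39 Hox genes on a log axis, with 1 point per library (circles WT, squares LRP1 eKO, n = 4 a group). Mesothelial, fibroblast and smooth muscle sums are at least 1495 in every library, and EC sums lie between 50.3 and 82.6.

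Low paralog numbers made up nearly all of the Hox signal. Of the 39 genes, 25 were above 0 in all 8 libraries, and Hoxa13, Hoxc12, Hoxd1, Hoxd12 and Hoxd13 were listed at 0 in all 8. Hoxa13 and Hoxd13 pattern the digits and the genital tract. For paralog numbers 1 to 8 the median of the gene means was 1.42 over 23 genes, and 21 of them had a mean of at least 0.1. For paralog numbers 9 to 13 the median was 0.0186 over 16 genes. The smallest signals of genes fell with exon length (Spearman's rho -0.60 across 3154 genes, which are not independent replicates). The signal was therefore treated as per length, and levels were compared between genes. The slope of log2 smallest signal on log2 length was -0.48, a weaker fall than in proportion to length, so that comparisons of levels between genes are approximate. Across the 39 Hox genes, mean signal and paralog number had a Spearman's rho of -0.64, given as a description over genes that share libraries.

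**Figure D2:**
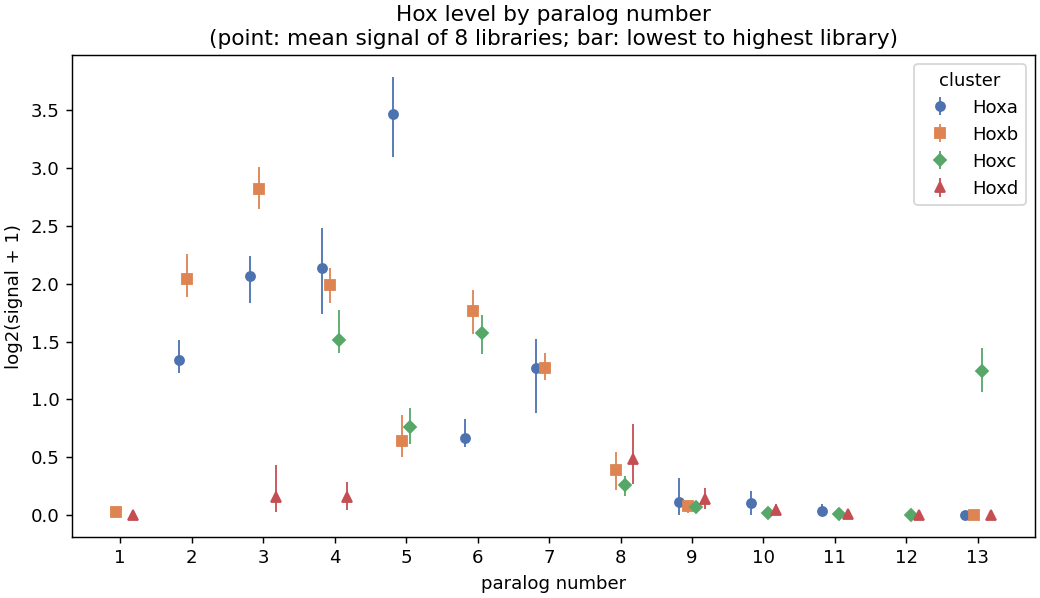
Mean signal of Hox genes over 8 libraries as log2(signal + 1) against its paralog number, with bars from the lowest to the highest library and symbols for the 4 clusters. Among the genes shown, most signal sits at paralog numbers 2 to 7. Of the 16 genes numbered 9 to 13, only Hoxc13 has a mean of at least 0.1.

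Hoxc13, a regulator of hair and nail keratins, was the one gene above paralog number 8 that passed the filter. Its signal was 1.55, 1.24, 1.71 and 1.23 in the WT libraries and 1.16, 1.72, 1.10 and 1.28 in the LRP1 eKO libraries. The groups overlapped (limma adjusted p = 0.58). The next highest value among the other 15 genes of paralog numbers 9 to 13 in any library was 0.244, for Hoxa9 in WT replicate 4, so that Hoxc13 stood apart from its neighbours Hoxc12 and Hoxc11, which were at 0 in 8 and 7 libraries.

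The 4 clusters contributed unequally. HoxA (chromosome 6, minus strand, GRCm38) held 55.3% of the summed Hox signal in WT libraries, and HoxB (chromosome 11, 96194316 to 96368256) held 31.6%. HoxC (chromosome 15, 102921103 to 103036852) held 11.4% and HoxD (chromosome 2, 74668310 to 74765142) held 1.68%. Paralog number 5 had the largest share of any number, 24.4% in WT libraries, with Hoxa5 giving 12.2 of a mean sum of 13.3.

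The HoxA sum was 28.2, 29.7, 30.3 and 32.1 in the WT libraries and 20.9, 22.3, 22.3 and 21.5 in the LRP1 eKO libraries. Every LRP1 eKO library was below every WT library, and the LRP1 eKO mean was 72.3% of the WT mean. The HoxB sum averaged 17.2 ± 0.709 for WT and 16.7 ± 0.940 for LRP1 eKO libraries, and the HoxC mean was 6.18 ± 0.315 and 6.14 ± 0.627. Both overlapped between groups, as did HoxD, at 0.914 ± 0.0788 and 0.599 ± 0.235. The HoxD mean in LRP1 eKO libraries was 65.5% of the WT mean, and replicate 2, at 0.935, alone reached the WT range of 0.862 to 1.03. Over all 39 genes the sum averaged 54.3 ± 2.03 for WT and 45.2 ± 2.12 for LRP1 eKO libraries, with no overlap. The HoxA share of the total was 48.1% in LRP1 eKO libraries. Sums of several paralog numbers, 2, 4 and 5 among them, were lower in LRP1 eKO libraries without overlap, and those of number 3 and of numbers 6 to 13 overlapped.

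**Figure D3:**
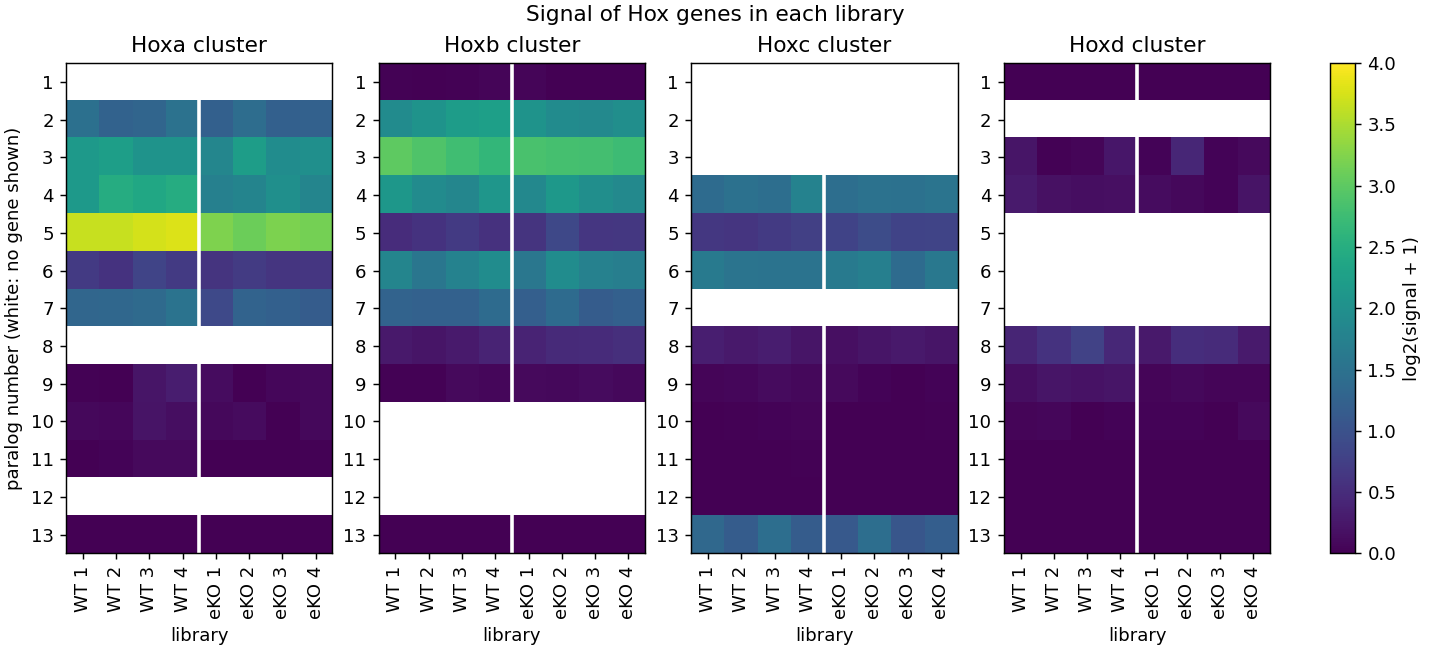
Signal of Hox genes in each of 8 libraries, as log2(signal + 1) by colour, with 1 panel per cluster, paralog number down and libraries across (white cells: no gene shown). Hoxa5 is the brightest row in every library, and the rows of paralog numbers 9 to 12 are dark.

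For each gene, log2(signal + 1) was compared between LRP1 eKO and WT libraries with limma, and a gene was tested if 4 or more of the 8 libraries had a signal of 1 or higher. This kept 14 Hox genes, 6 of HoxA, 5 of HoxB, 3 of HoxC and 0 of HoxD, and 25 were below the filter. At an adjusted p under 0.05, 3 of the 14 were lower and 0 were higher, where 22.2% of the 11391 genes tested were lower and 19.0% were higher. The 3 lower genes are 21.4% of the 14, so the count of Hox genes called was near that of all genes. With a 2-fold change required, 0 of the 14 were called, against 0.79% of all genes lower and 0.869% higher. Adding 1 to the signal understates changes of low genes, as most of the 14 are. With a pseudocount of 0.1 in its place the count was also 0. Of the 14, 13 had a lower mean in LRP1 eKO libraries, where 51.6% of all genes did, and the median log2 fold change was -0.09, against -0.0095 for all genes. Groups did not overlap for 4 genes, all of them lower and all of HoxA, where 22.5% of all genes were lower without overlap.

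**Figure D4:**
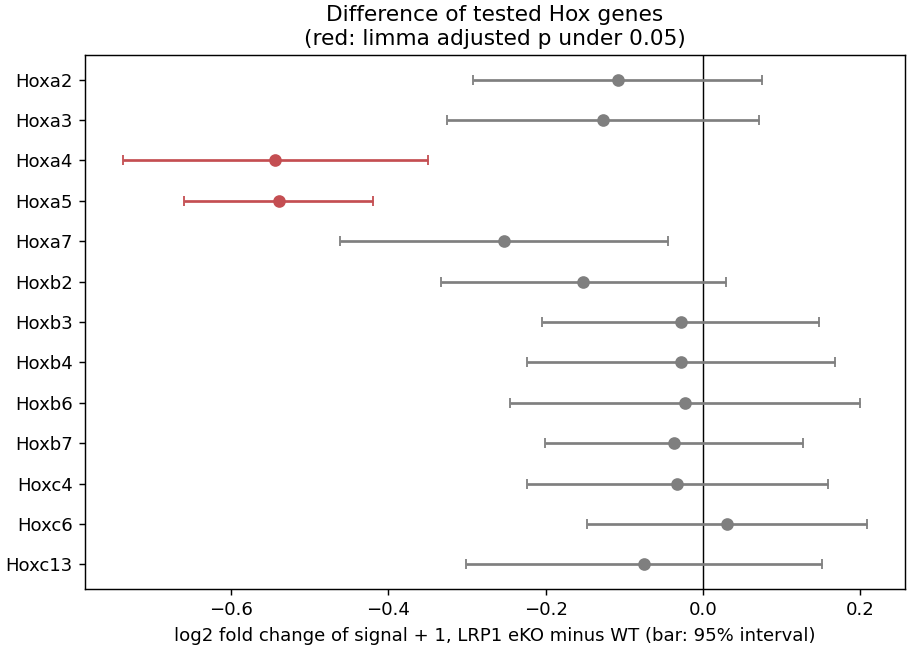
Log2 fold change of signal + 1, LRP1 eKO minus WT, for tested Hox genes with 95% intervals, red where the limma adjusted p is under 0.05. Hoxa4 and Hoxa5 lie below 0 in red, and the genes of HoxB and HoxC have intervals that include 0.

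Hoxa5 (ENSMUSG00000038253, chromosome 6, 52201754 to 52204587) shapes the lung and the neck and upper thoracic skeleton and is known in ECs as a factor of the quiescent state. Its signal was 11.7, 11.7, 12.4 and 12.8 in the WT libraries and 8.38, 7.58, 8.29 and 7.95 in the LRP1 eKO libraries. Mean signal in LRP1 eKO libraries was 66.2% of that in WT, and no library overlapped with the other group. Hoxa5 thus fell by 0.54 on the log2 scale, with a standard error of 0.054 (limma adjusted p = 5.8e-05). No exon of another gene overlapped those of Hoxa5 in the annotation.

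Hoxa4 (ENSMUSG00000000942, chromosome 6, 52189671 to 52191753), a gene of the neck region, had signals of 3.49, 4.57, 4.24 and 4.58 in the WT libraries and 2.33, 2.48, 2.97 and 2.52 in the LRP1 eKO libraries. All LRP1 eKO libraries were below all WT libraries, and their mean was 61.0% of that in WT. Hoxa4 fell by 0.54 on the log2 scale, with a standard error of 0.087 (limma adjusted p = 0.0010). Exons of Hoxa4 overlap the antisense gene Gm29430, and because strand is not stated for the counting, reads of the pair cannot be told apart.

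Hoxa7 (ENSMUSG00000038236) had signals of 1.51, 1.53, 1.59 and 1.87 in the WT libraries and 0.845, 1.41, 1.34 and 1.25 in the LRP1 eKO libraries. The groups did not overlap, at 74.5% of the WT mean, but the test did not pass (log2 fold change -0.25, limma adjusted p = 0.053), and its exons overlap the antisense gene Hoxaas3. Without LRP1 eKO replicate 2 it passed. Hoxa2, a selector of the second pharyngeal arch, had means of 1.63 and 1.44, and Hoxa3, needed for the thymus and parathyroid, had 3.37 and 3.01. Neither passed (limma adjusted p = 0.31 and 0.27), and both overlapped between groups. Exons of both overlap those of Gm28308, and exons of Hoxa3 also overlap antisense genes, Hoxaas2 and Hoxaas3 among them.

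**Figure D5:**
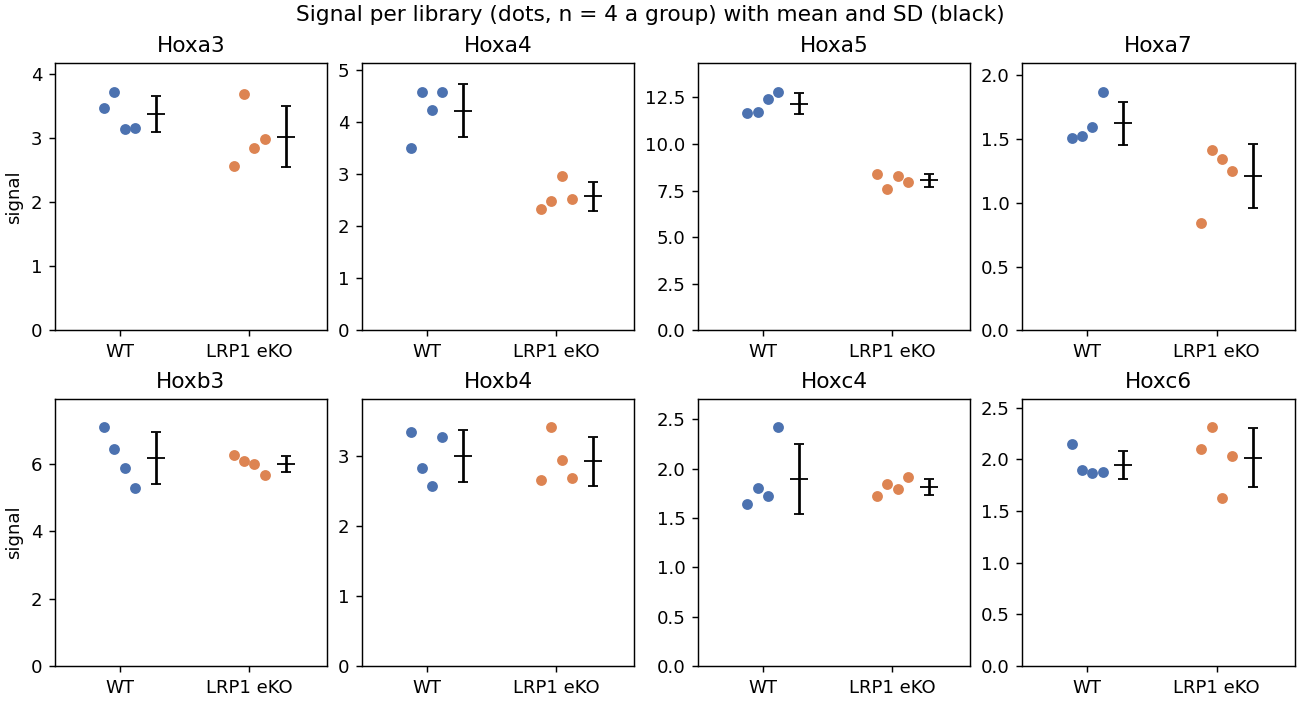
Signal of 8 Hox genes in each library (dots, n = 4 a group) with the mean and SD in black, on axes that start at 0. Hoxa4, Hoxa5 and Hoxa7 show no overlap between WT and LRP1 eKO libraries, and Hoxa3, Hoxb3, Hoxb4, Hoxc4 and Hoxc6 overlap.

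In HoxB, Hoxb3 had the highest signal, 6.16 ± 0.772 for WT and 6.00 ± 0.241 for LRP1 eKO libraries. Its log2 fold change of -0.03 had a 95% interval from -0.20 to 0.15. Hoxb4, known for expanding blood stem cells, had 3.00 ± 0.373 and 2.92 ± 0.348, with an interval of the log2 fold change from -0.22 to 0.17. Hoxb2, which acts in the hindbrain, had 3.35 and 2.90 (limma adjusted p = 0.16). Exons of Hoxb2 and of Hoxb3 overlap the antisense gene Hoxb3os, so the limit given for reads of Hoxa4 holds for them too. Hoxb6 had 2.43 and 2.38, and Hoxb7 had 1.44 and 1.38. In HoxC, Hoxc4 had 1.90 ± 0.355 and 1.82 ± 0.0814, and Hoxc6 had 1.95 ± 0.134 and 2.02 ± 0.286, with intervals from -0.22 to 0.16 and from -0.15 to 0.21. Of the genes described here, the order of levels in WT libraries was Hoxa5, then Hoxb3, then Hoxa4, and the ranges of these 3 did not overlap.

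Paralogs of the same number were compared within each library, as the difference of their log2(signal + 1), for the 5 pairs of tested genes that hold a HoxA member, which were chosen with their values known. The Hoxa4 minus Hoxb4 difference was 0.38 across WT and -0.13 across LRP1 eKO libraries, and the Hoxa4 minus Hoxc4 difference was 0.85 and 0.34. Neither overlapped between groups (exact two-sided permutation test, p = 0.029 for each, the smallest that 4 against 4 allows). Adjusted over the 5 pairs the p was 0.071 for each, so that neither passed. The Hoxa7 minus Hoxb7 difference changed by -0.22 (exact permutation p = 0.057), and the pairs of numbers 2 and 3 changed by 0.04 and -0.10 (exact permutation p = 0.69 and 0.37). Both Hoxa4 pairs rest on the Hoxa4 values given above.

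For the 25 genes that missed the filter, limma was run on all 17959 genes with any signal, of which 15.3% were lower and 12.0% were higher. Of the 20 that were above 0 in at least 1 library, 1 was lower and 2 were higher. Hoxd9 had signals of 0.109, 0.175, 0.145 and 0.169 in the WT libraries and 0.0372, 0.0622, 0.0367 and 0.0410 in the LRP1 eKO libraries, without overlap (limma adjusted p = 0.0021). Hoxb8, known from blood progenitors, had 0.211, 0.164, 0.218 and 0.322 in WT and 0.323, 0.386, 0.410 and 0.456 in LRP1 eKO libraries (limma adjusted p = 0.018). Its groups lay next to each other without overlap, and without LRP1 eKO replicate 3 or replicate 4 the adjusted p was 0.053 for each. Hoxc5 had means of 0.597 and 0.789, also without overlap (limma adjusted p = 0.023), and its annotated exons overlap those of Hoxc10. Without WT replicate 1, 2 or 3 its adjusted p was 0.058, 0.058 or 0.051. Groups without overlap made up 17.4% of all genes in the lower and 14.6% in the higher direction. Hoxd8 had means of 0.482 and 0.317, Hoxa6 0.621 and 0.554, Hoxb5 0.501 and 0.613 and Hoxc8 0.223 and 0.167, and none of these passed.

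The protein-coding genes next to the clusters ranged from 0 to signals above those of every Hox gene. Evx1, Ttll6 and Evx2, beside HoxA, HoxB and HoxD, were listed at 0 in all 8 libraries. Skap2, an adaptor protein gene 143 kb from HoxA, averaged 58.0 across WT and 52.5 across LRP1 eKO libraries, without overlap (log2 fold change -0.14, limma adjusted p = 0.034). Calcoco1, beside HoxC, had 36.6 and 32.6 (log2 fold change -0.16, limma adjusted p = 0.032). The Skap2 call was lost when WT replicate 1 or 3 was left out, and when LRP1 eKO replicate 1, 2 or 4 was (limma adjusted p up to 0.088). The Calcoco1 call was lost when WT replicate 1 or 2 was left out, and when LRP1 eKO replicate 1, 3 or 4 was (limma adjusted p up to 0.089). Smug1 and Mtx2 had log2 fold changes of -0.13 each and did not pass.

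HOX proteins bind DNA together with TALE homeodomain partners. Of 8 tested TALE genes, 1 was lower and 0 were higher, with a median log2 fold change of -0.09. For this list and the lists that follow, the counts are to be read against the 22.2% of all tested genes that were lower and the 19.0% that were higher, and the medians against -0.0095. Meis1 fell from 16.6 ± 0.472 to 13.9 ± 0.950 (log2 fold change -0.24, limma adjusted p = 0.0074). Meis2 had a log2 fold change of -0.08, and it did not pass. Pbx2 had means of 16.9 and 15.5 and Pbx3 had 5.84 and 5.09, and neither passed.

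Polycomb proteins keep Hox genes silent, and MLL and trithorax proteins keep them active. Of 24 tested Polycomb genes, 6 were lower and 1 was higher, with a median log2 fold change of -0.09. Rbbp7, a histone binding subunit, fell from 162 to 127 (log2 fold change -0.34, limma adjusted p = 4e-04), and Cbx6 fell from 25.7 to 19.2 (log2 fold change -0.41, limma adjusted p = 2e-04). Rbbp4 and Ring1 were also lower, with log2 fold changes of -0.26 and -0.29, and Aebp2 rose by 0.33 on this scale, a call lost without LRP1 eKO replicate 2 or 3 (limma adjusted p = 0.051 and 0.056). Of 13 tested MLL and trithorax genes, 2 were lower and 1 was higher, with a median of 0.03. Psip1 and Dpy30 fell by 0.27 and 0.34 on the log2 scale, and Dot1l, the H3K79 methyltransferase, rose by 0.27.

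Retinoic acid induces Hox genes of low paralog number in the embryo. Of 13 tested genes of the pathway, 3 were higher and 3 were lower, with a median log2 fold change of -0.01. Aldh1a1, a retinaldehyde dehydrogenase, fell from 485 to 354 (log2 fold change -0.45). Crabp2, which carries retinoic acid to its receptors, rose from 13.5 ± 1.74 to 22.6 ± 1.24 (log2 fold change 0.71). Dhrs3 had means of 40.8 and 36.1 and did not pass.

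Homeobox relatives outside the clusters were mostly silent, with 1 of 15 tested and 8 at 0 in all libraries. That gene, En1, fell from 1.69 ± 0.228 to 0.955 ± 0.0749 (log2 fold change -0.46, limma adjusted p = 0.0012). Of 18 tested other transcription factors of position, 8 were lower and 4 were higher, with a median log2 fold change of -0.14. Gata6 fell from 81.8 to 71.1, whereas Gata4, its relative, had 29.6 and 29.4 and did not pass (limma adjusted p = 0.90). Twist1, Tcf21 and Barx1, factors of mesenchyme, fell by 0.52, 0.59 and 0.36 on the log2 scale, and Hand2 rose by 0.35.

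Of 10 tested genes that respond to HOX proteins in ECs, 2 were higher and 3 were lower, with a median log2 fold change of 0.08. Itga5, an integrin subunit of the fibronectin receptor, rose from 50.5 ± 2.95 to 99.2 ± 7.92 (log2 fold change 0.96, limma adjusted p = 4.8e-06), and Plaur rose by 0.22 on the log2 scale. Ephb4 and Efna1, of the ephrin system, fell by 0.33 and 0.43. Mmp14 had means of 232 and 247 and did not pass.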

How the data were processed

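Cells isolated from mouse liver as microvascular ECs were profiled by mRNA-seq in 4 WT and 4 LRP1 eKO libraries, grouped by the sample labels. The labels do not say that libraries came from separate mice, so p-values measure the spread between libraries, which may be technical.

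The authors deposited a quantile-normalized signal for 22520 protein-coding genes, and all library columns were used. The paper's methods describe STAR and featureCounts with edgeR on mm10, while the submitters' processing notes name TopHat2 and Cufflinks, and which of these made the table is not given in the sources used here. Library sums were between 484445 and 485947, fixed by the normalization, which removes any global shift. Depth is unknown, and no interval for counting error was computed.

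From the deposited signal, log2(signal + 1) was compared by genotype (limma 3.58.1, R 4.3.3, mean-variance trend, Benjamini-Hochberg adjustment) for 11391 genes that reached a signal of 1 in 4 or more of 8 libraries. This scale understates changes of low genes. Exact two-sided permutation tests used 70 assignments (scipy 1.17.1). The fit was tested on simulated data (11391 genes): it recovered 159 of 200 genes given a log2 change of 0.5, and 194 of 200 given a change of 1. Positions came from GENCODE M21 on GRCm38, which held 21740 of the gene identifiers; Hoxd4 was matched by symbol. Promoters came from RefSeq.

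The Hox members, gene lists, pairs and tests were chosen with earlier results of these data known. Named genes were all Hox members, Lrp1, cluster neighbours, and for each list the 3 genes with the highest mean or the 3 smallest adjusted p, not all of which are printed. Results of some named genes are not reported here. Cdh5 and Pecam1 were named as defining EC markers, and other cell type markers where members of a list differed in direction. Also run were fits with a pseudocount of 0.1 or 5, no filter, a mean signal of at least 5, no trend, robust moderation, array weights, trimmed mean centring, a replicate block and leaving out each library.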

Additional observations from a re-analysis of the deposited data

Results flagged for a closer look

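Of 126 groups of 4 libraries examined (Hox genes, Hox sums and marker sums), 15 had 1 library far from the others, where chance flags about 1 in 20, or 6.3. The value given is the gap to the nearest library divided by the range of the group.

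LRP1 eKO replicate 2 was the highest for Hoxa2 (0.937), Hoxd3 (0.842), Hoxd9 (0.832), Hoxb13 (1.00), the HoxB sum (0.834) and the sum of paralog number 3 (0.914), and the lowest for Hoxa11 (0.833) and the sum of paralog number 11 (0.833). LRP1 eKO replicate 1 was the highest for Hoxd11 (1.00) and the sum of paralog number 9 (0.843), and LRP1 eKO replicate 4 for Hoxc10 (1.00). WT replicate 1 was the highest for Hoxc6 (0.913). WT replicate 4 was the highest for Hoxc11 (1.00), the sum of paralog number 7 (0.900) and the skeletal muscle marker sum (0.837). A value of 1.00 means that the other 3 libraries of the group were listed at 0.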

How the results depend on the processing

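Hoxa5 was lower under all 18 alternatives, and Hoxa4 under the 17 in which it was tested, since a mean signal of at least 5 left it out. The count of lower Hox genes was 5 with array weights, which added Hoxa3 and Hoxa7, and 4 without the mean-variance trend. With no filter 2 were higher, Hoxb8 and Hoxc5. The median log2 fold change was -0.31 over the 3 genes with a mean signal of at least 5. With 1 library left out, the count of lower Hox genes was 3 to 4, the median was -0.15 to -0.06 and Lrp1 was -3.80 to -3.42. With both WT replicate 4 and LRP1 eKO replicate 2 left out, an alternative chosen after seeing the data, 4 were lower, with Hoxa3 added.

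Directions of small differences turned. With array weights Hoxb6 was 0.032, Hoxc4 0.026, Hoxc6 -0.013, Hoxa9 2.2e-04 and Hoxd3 -2.03e-04. With those 2 libraries left out Hoxc4 was 0.046, Hoxc6 -0.027, Hoxa9 0.0088 and Hoxd3 -0.046, and with a pseudocount of 0.1 Hoxd3 was -0.011. With 1 library left out, the log2 fold change ran for Hoxb3 from -0.090 to 0.031, for Hoxb4 from -0.086 to 0.013, for Hoxb6 from -0.093 to 0.035, for Hoxb7 from -0.087 to 0.0014, for Hoxc4 from -0.075 to 0.049, for Hoxc6 from -0.015 to 0.096, for Hoxd3 from -0.080 to 0.053, and for Gata4 from -0.030 to 0.019. The cause was not tested.

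Same-numbered libraries did not pair: their deviations correlated between -0.13 and 0.18, and not every library correlated best with its own number. With the replicate block, 3 Hox genes were lower, the median was -0.09 and Hoxa5 was -0.54. The block ended the calls of Calcoco1 (limma adjusted p = 0.069) and of Hoxc5 fitted without the filter (limma adjusted p = 0.076), and Hoxd8 fitted without the filter passed (limma adjusted p = 0.049). It changed no other call among the genes recomputed. Depth is unknown, so low signals carry an unknown counting error.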
